A study of Mus musculus with 3 samples.

Results

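In mouse bone marrow-derived macrophages given lipopolysaccharide (LPS) for 2 h, 276 regions of the genome carried a called EZH2 interval and met no EZH2 interval of the untreated macrophages. They are called LPS-only regions here. They were chosen by their calls: of 9785 merged regions on chromosomes 1 to 19, X and Y, a region was kept if it shared at least 1 bp with an interval of the LPS library and none with an interval of the untreated (NT) library. The 276 regions were 2.82% of all merged regions. Another 4027 regions had an interval in both libraries and 5482 in NT alone. The NT list was the longer one, with 9643 intervals against 4651, and with only its highest 4651 kept 1315 regions would be LPS-only.

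The cells were macrophages of strain C57BL/6, grown from adult bone marrow for 5 days in medium with M-CSF, the growth factor of the macrophage lineage, and both groups shared all of this. EZH2-bound DNA was recovered by chromatin immunoprecipitation and sequenced (ChIP-seq), with 1 library of untreated cells, 1 library of cells given LPS for 2 h and 1 library of input DNA, for which no intervals were used. The labels do not say whether 1 or several animals gave the marrow. The intervals do not measure expression, so the labelled cell type was not checked against marker expression.

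EZH2 is the catalytic subunit of polycomb repressive complex 2, which methylates lysine 27 of histone H3 and is found mainly at CpG-rich promoters of silent developmental genes. LPS, a bacterial cell wall component, is sensed by Toll-like receptor 4 and switches on inflammatory genes through NF-kB, AP-1 and interferon regulatory factors. Immediate-early genes respond first, and interferon-stimulated genes respond in part through interferon beta that the macrophages themselves secrete.

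With 1 library per condition no difference here has a replicate check, and no test between conditions was made. Each interval has a whole-number value at its summit, the authors' own, whose unit and scaling no source here states. These LPS summit values ran from 7 to 24 in the LPS-only regions, with a median of 11, against 8 to 100 (median 17) in regions called in both libraries. Values below 11, the lowest in the NT list, were held by 101 of the 276 regions (36.6%). Whether LPS and NT values share a scale is not known. The NT signal within the LPS-only regions is unknown. The stimulated track is named TLR in the deposited file and was taken as the LPS sample, the only stimulated EZH2 sample.

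The promoters below carried an LPS-only region over their full length and belong to genes of the LPS response lists. They are 8 of the 10 promoters of LPS response genes that lay wholly in such a region, and those of Slfn5 and Isg20 are not printed. Each is the stretch of 250 bases before the transcription start, 5′ to 3′ in the direction of the gene, from RefSeq promoters on assembly GRCm38.p6, which is mm10. Capitals mark matches, on either strand, to the NF-kB site, the interferon response element core (GAAA, any 2 bases, GAAA), the AP-1 site TGANTCA or the TATA box TATAAA. The gene products are the chemokine Cxcl10 at chr5:92348890-92349139 (minus strand), the antiviral enzyme Rsad2 at chr12:26456453-26456702 (minus), the NF-kB inhibitor Tnfaip3 at chr10:19015411-19015660 (minus), the cytokine Tnf at chr17:35202008-35202257 (minus), the antiviral RNA-binding protein Ifit1 at chr19:34640639-34640888 (plus), the interferon-induced GTPase Gbp5 at chr3:142496684-142496933 (plus), the chemokine Ccl3 at chr11:83649379-83649628 (minus) and the transcriptional repressor Bcl6 at chr16:23988853-23989102 (minus).
Cxcl10: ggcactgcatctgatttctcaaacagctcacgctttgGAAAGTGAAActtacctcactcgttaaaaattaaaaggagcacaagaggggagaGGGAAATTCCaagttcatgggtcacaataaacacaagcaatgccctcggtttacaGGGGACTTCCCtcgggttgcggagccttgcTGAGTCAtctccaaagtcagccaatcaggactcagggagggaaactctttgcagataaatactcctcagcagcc
Rsad2: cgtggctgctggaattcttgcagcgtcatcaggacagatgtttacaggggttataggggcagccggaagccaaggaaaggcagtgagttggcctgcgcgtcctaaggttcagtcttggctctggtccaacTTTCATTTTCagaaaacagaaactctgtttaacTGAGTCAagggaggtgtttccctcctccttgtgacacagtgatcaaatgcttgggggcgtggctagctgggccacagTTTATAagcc
Tnfaip3: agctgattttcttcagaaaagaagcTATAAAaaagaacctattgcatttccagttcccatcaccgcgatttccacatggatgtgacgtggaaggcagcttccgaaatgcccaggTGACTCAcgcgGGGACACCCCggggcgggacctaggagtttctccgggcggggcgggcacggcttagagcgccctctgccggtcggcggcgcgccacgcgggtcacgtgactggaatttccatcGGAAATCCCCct
Tnf: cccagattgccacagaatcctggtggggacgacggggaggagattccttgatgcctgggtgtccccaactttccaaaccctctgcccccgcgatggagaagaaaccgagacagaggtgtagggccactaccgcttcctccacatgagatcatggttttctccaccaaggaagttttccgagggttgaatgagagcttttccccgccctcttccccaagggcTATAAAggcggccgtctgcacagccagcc
Ifit1: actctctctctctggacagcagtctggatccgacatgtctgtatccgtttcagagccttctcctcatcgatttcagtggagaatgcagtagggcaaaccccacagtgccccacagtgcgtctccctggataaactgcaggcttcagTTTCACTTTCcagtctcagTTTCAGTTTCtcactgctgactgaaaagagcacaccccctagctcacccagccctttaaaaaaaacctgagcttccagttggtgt
Gbp5: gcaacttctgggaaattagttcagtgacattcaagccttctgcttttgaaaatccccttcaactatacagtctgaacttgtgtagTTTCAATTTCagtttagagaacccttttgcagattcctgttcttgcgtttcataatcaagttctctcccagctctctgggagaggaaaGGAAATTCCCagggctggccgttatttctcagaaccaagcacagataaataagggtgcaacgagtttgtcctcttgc
Ccl3: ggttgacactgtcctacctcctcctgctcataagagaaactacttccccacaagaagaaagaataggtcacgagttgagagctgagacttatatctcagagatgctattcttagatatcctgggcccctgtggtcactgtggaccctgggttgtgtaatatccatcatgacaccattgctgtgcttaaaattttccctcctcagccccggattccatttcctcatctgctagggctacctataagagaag
Bcl6: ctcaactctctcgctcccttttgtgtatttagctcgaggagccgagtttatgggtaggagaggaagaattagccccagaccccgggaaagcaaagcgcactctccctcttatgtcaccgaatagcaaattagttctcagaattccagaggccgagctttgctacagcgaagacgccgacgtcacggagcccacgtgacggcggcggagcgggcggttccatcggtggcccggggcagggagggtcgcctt

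The first 3 LPS-only regions in the order of LPS summit values were at Ccl4 (24), Cxcl10 (23) and Rsad2 (21), which encode a chemokine for monocytes and T cells, a chemokine for activated T cells and an antiviral enzyme. Of the 19 regions with a value of 17 or more, 9 lay within 2.5 kb of a gene of the LPS response lists described next, as did 5 of the 10 widest and 41 of all 276 (14.9%). The genes nearest to the other regions with 17 or more were Chst5 and Lrp11 (20 each), Myrip, Nup85 and P3h2 (19 each), Tdrd5 (18), and Zfp697, Asns, Kcp and Fsd1 (17 each). Asns encodes asparagine synthetase and Nup85 a nuclear pore protein. The widest region, of 3162 bp, covered most of the chemokine gene Ccl5 with a value of 18.

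Genes of the LPS response were counted over 7 lists, which were chemokines, inflammatory cytokines, interferon-stimulated genes, NF-kB subunits with their inhibitors and targets, AP-1 with Egr and other immediate-early genes, feedback regulators, and other LPS-induced genes. Of their 203 protein-coding genes, 29 (14.3%) had an LPS-only region in the gene or within 2.5 kb of it, against 228 of all 21887 protein-coding genes (1.04%). These 29 genes rested on 41 regions with LPS summit values of 8 to 24 (median 12). An LPS-only region over 10 kb from any NT interval was held by 22 of the 203 genes (10.8%), against 0.672% of all protein-coding genes. These were 22 of the 29 genes with an LPS-only region, beside 147 of the 228 such genes among all. At 22 of the 29 genes no other interval of either library was called within 2.5 kb. The lists were drawn up with earlier results of these data known, so the counts describe them and are no independent support.

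**Figure D1:**
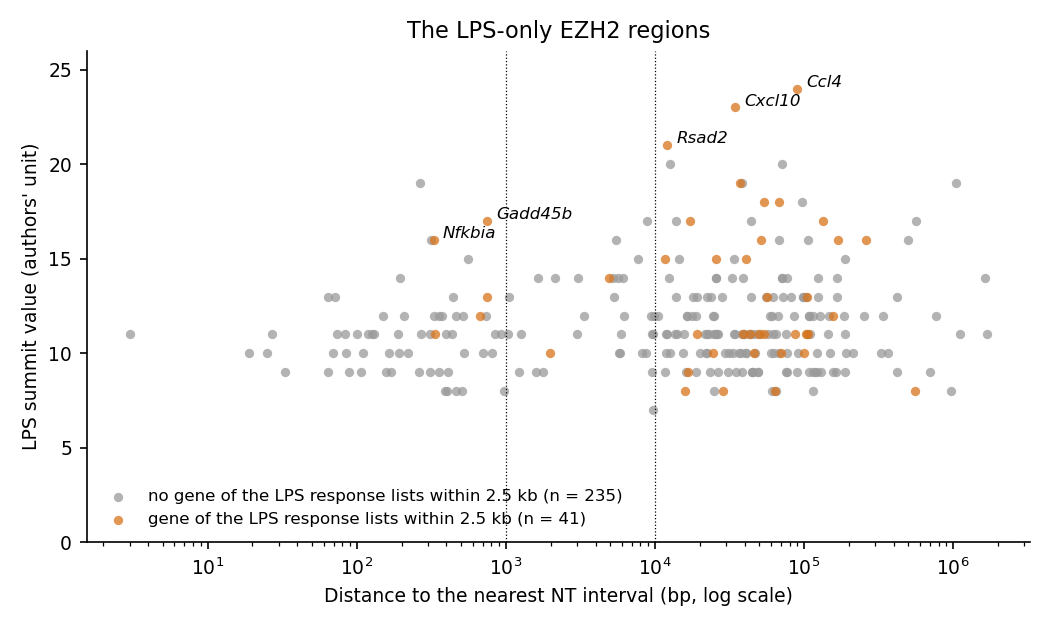
Each point is 1 of the 276 LPS-only regions, with its LPS summit value (authors' unit, vertical axis) against its distance in bp to the nearest NT interval (horizontal axis, log scale). Dotted lines mark 1 kb and 10 kb. Orange points are the 41 regions within 2.5 kb of a gene of the LPS response lists and grey points all others, and the orange points at Ccl4, Cxcl10 and Rsad2 are the highest of all.

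The lists differed in whether their genes had LPS-only regions or regions called in both libraries. Of 17 chemokine genes, 4 (23.5%) had an LPS-only region and none had a region called in both. Of 38 interferon-stimulated genes, 8 (21.1%) had an LPS-only region and 3 (7.89%) a region called in both. Of 27 immediate-early genes, 0 had an LPS-only region, near the 1.04% of all protein-coding genes for a list of this size. A region called in both was held by 21 (77.8%), against 17% of all protein-coding genes. The 9 interferon regulatory factor genes had 0 and 5, and this 0 is near the background too.

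Genes with NF-kB function had both kinds of region. Of 25 such genes, 6 (24%) had an LPS-only region and 8 (32%) a region called in both, and 3 genes had both kinds. Among 25 feedback regulators, 3 (12%) had an LPS-only region and 11 (44%) a shared one. The counts were 3 and 2 of 23 inflammatory cytokine genes and 5 and 8 of 48 other LPS-induced genes.

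Signalling genes that carry the LPS signal, and macrophage genes, had none. Of 27 TLR signalling genes 0 had an LPS-only region and 1 a region called in both, while 14 had a region called in NT alone, against 26.4% of all protein-coding genes. Of 30 macrophage genes 0 had an LPS-only region. Neutrophil and mast cell genes (14) and stromal and endothelial genes (12) had 0 as well, and the 16 non-coding RNA genes of a further list had 0. Of 30 housekeeping genes 1 did, the actin-binding Tmsb4x (9). The T and B lymphocyte list had Ebf1 alone (12), a B cell transcription factor, among 17 genes. Beside the 1.04% of all genes, counts of 0 or 1 in lists of this size are near the background.

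**Figure D2:**
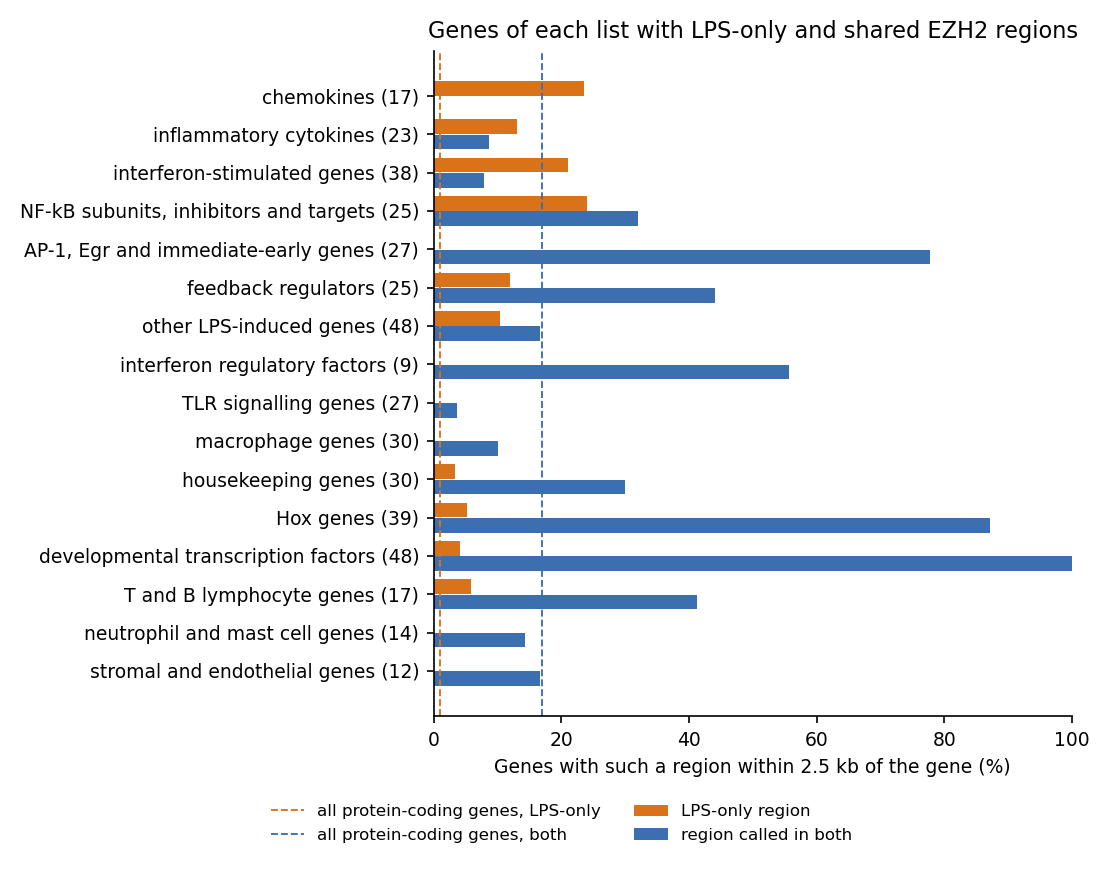
Bars give the percent of genes of each list (number of protein-coding genes in brackets) with an LPS-only region (orange) or a region called in both libraries (blue) within 2.5 kb of the gene, and dashed lines give the same over all protein-coding genes, 1.04% and 17%. Chemokine genes have orange bars alone. Immediate-early genes have blue bars alone, as do several other lists.

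At several induced genes the LPS-only regions came in series along the gene. Over all protein-coding genes 14 (0.064%) had 2 or more, and 9 of these were on the LPS response lists. The 14 became 9 among regions with an LPS value of 11 or more, and 71 with the NT list shortened to the length of the LPS list. Acod1, which encodes the enzyme that makes itaconate in activated macrophages, had 6, the most of any gene. They ran from chr14:103046782-103048013 (LPS summit value 16), over the start of the gene, through regions of 11, 10 and 11 inside it, to regions of 15 and 11 past its 3′ end. Together with the gaps they spanned 13543 bp, of which they covered 58%, and the nearest NT interval was 38821 bp away. They covered 43.3% of the gene itself.

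Cxcl10 was covered almost from end to end. A region at chr5:92347650-92349226 (19) held its start and one at chr5:92344986-92347582 (23) its 3′ end, and together they covered 97% of the gene, with the nearest NT interval at 34655 bp. Both also lay inside Art3, which overlaps Cxcl10 in the gene table. At the chemokine genes Ccl3 and Ccl4, which overlap in that table, 4 regions lay between 83646229 and 83666288 on chromosome 11, with values of 11, 11, 24 and 11.

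Of the antiviral genes, Rsad2 and Slfn2 had regions at both ends. Rsad2 had one at chr12:26455598-26456809 (21) over its start and others of 10 and 15 inside the gene and over its 3′ end, beginning 11946 bp and 13124 bp from the start. Slfn2, an interferon-induced Schlafen gene, had 8 at its start and 18 at its 3′ end. Slfn5 had 17 and 11, both inside the gene near its 5′ end in the gene table. The region of 17 covered a transcription start of the promoter table. Isg20 (8), Ifit1 (13) and Gbp5 (10) had 1 region each, over the start.

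Genes of the NF-kB circuit included its targets and its brakes. Tnfaip3, whose protein A20 restrains NF-kB signalling, had a region of 16 over its start and one of 12 inside the gene near its 3′ end, with the nearest NT interval 156184 bp away. Tnf, the central inflammatory cytokine gene, had regions of 14 over its start and 10 over its 3′ end, the latter 1995 bp from an NT interval of 23. The region of 14 also came within 2.5 kb of its neighbour Lta. Nfkb1, which encodes the p50 subunit, had 1 region of 17 inside the gene. Ptx3, a secreted pattern recognition protein, had 16 and the costimulatory receptor gene Cd40 13.

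At 7 of the 29 genes an NT interval was called as well. In most of these the LPS-only region lay on the 3′ side of an NT interval at or near the start. At Socs3 and Icam1 a further NT interval lay past that region. The rule bars an LPS-only region from meeting an NT interval, so with the start taken it had to lie elsewhere. The order is thus in part set by the rule and is a description. Nfkbia, the gene of the main NF-kB inhibitor, had intervals at its start with 42 in NT and 24 in LPS, and the LPS-only region (16) began 759 bp into the gene. Gadd45b, a stress-induced survival gene, had 31 in NT and 13 in LPS around its start and an LPS-only region of 17 at its 3′ end, so that the value there was above the LPS value at the start. At Socs3, a feedback inhibitor of cytokine receptors, an interval over the gene had 30 in NT and 22 in LPS, and the LPS-only region (13) met the 3′ end, 743 bp from a further NT interval of 18. At Tnfaip2 the start had 27 and 17 and the LPS-only region (15) lay past the 3′ end. Cflar had 29 in NT at its start and an LPS-only region of 8 inside the gene. Icam1, a leukocyte adhesion gene, had 30 in NT and 10 in LPS at its start and an LPS-only region of 12 past its 3′ end. That region lay at the start of the next gene, Icam4, 677 bp from a further NT interval of 48. Bcl6, a transcriptional repressor gene, had the opposite order, with its LPS-only region (11) over the start and an NT interval of 14 inside the gene 334 bp away.

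**Figure D3:**
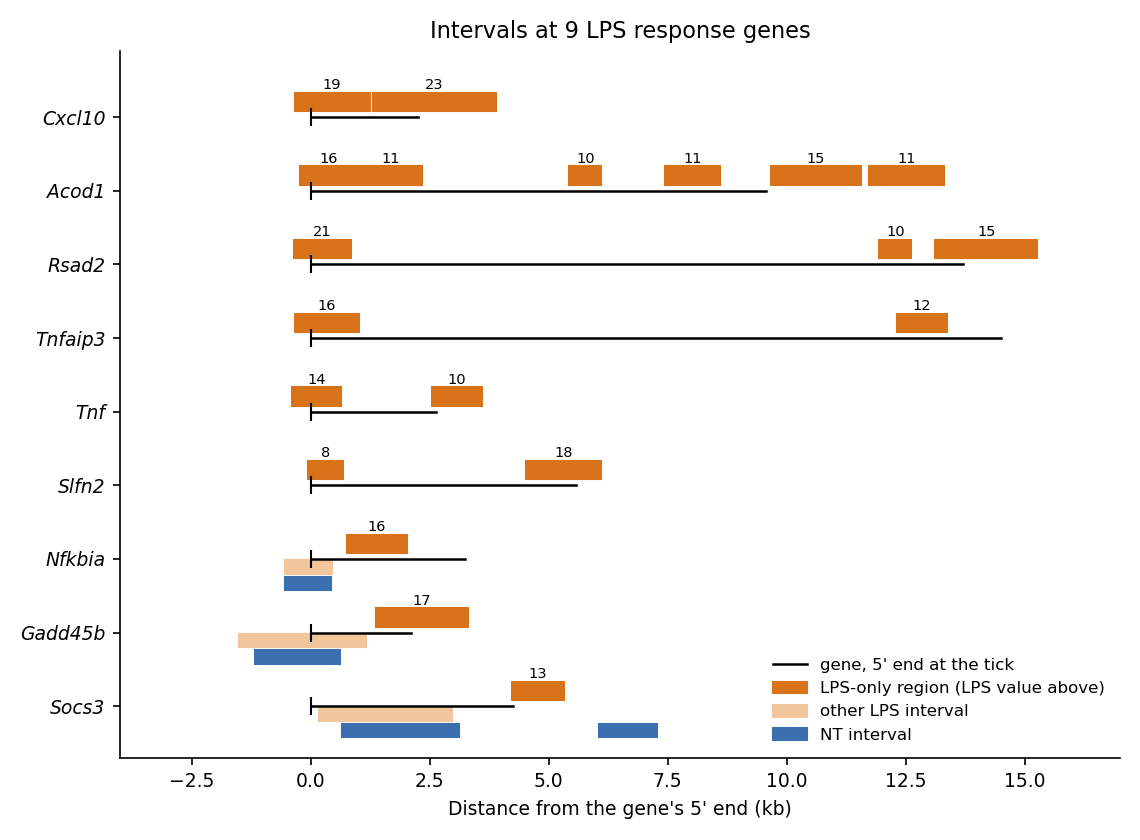
The line for each of 9 LPS response genes runs from the 5′ end (tick, at 0 kb) to the 3′ end, with distance from the 5′ end in kb on the horizontal axis. Orange boxes above it are LPS-only regions with their LPS summit values, and pale orange and blue boxes below it are other LPS intervals and NT intervals within 2.5 kb of the gene. The upper 6 genes have LPS-only regions alone. In Nfkbia, Gadd45b and Socs3 an NT interval lies at or near the start and the LPS-only region towards the 3′ side. At Socs3 a further NT interval lies past that region. The genes are a selection, and Bcl6, with the opposite order, is not shown.

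Counted over the 25 LPS response genes whose strand is known from the promoter table, 38 pairs of a gene and an LPS-only region were found, from 36 regions. The ends here are the outer ends of the gene in the gene table, not the starts of the promoter table. A region wholly inside a gene can thus cover a transcription start, as at Slfn5 (17) and Plaur (9). The region met the 5′ end in 11 pairs and the 3′ end in 6, lay wholly inside the gene in 13 and beyond the 3′ end in 7. It lay wholly before the 5′ end in 1 pair, at Irgm1. In 3 of the 7 pairs beyond the 3′ end the region was nearest to another gene, since Lta's lay at the start of Tnf, Icam1's at the start of Icam4 and Saa3's in Saal1. The same held for 1 of the 13 pairs inside a gene, as the region inside Ifit1bl1 lay at the start of Ifit1.

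Fewer of the LPS-only regions lay at gene starts, and more at 3′ ends, than of the other regions. The rule drops LPS regions that meet an NT interval, and regions with an NT interval lay mostly at starts. The rule itself can thus lower the share at starts, and its part was not tested. Distances were measured from the summit, in the 214 LPS-only regions whose nearest protein-coding gene had a known strand. That gene was chosen by the whole region, so width could enter through this choice. The summit was within 2.5 kb of a gene start in 55.6% (95% Wilson interval 48.9 to 62.1%), otherwise within 2.5 kb of the 3′ end of the nearest gene in 10.7% (7.27 to 15.6%), otherwise inside a gene in 13.6% and outside genes in 20.1%. Of 2259 regions called in both with an LPS value up to 24, the range of the LPS-only regions, 75.7% (73.9 to 77.5%) were at a start and 3.23% (2.58 to 4.04%) at a 3′ end. Of 4400 NT-only regions, these were 85.6% and 1.84%. The share at 3′ ends was 28.6% (16.3 to 45.1%) in the 35 regions at LPS response genes. It rests on 10 regions, and Rsad2 and Acod1 each had more than a single one. The share for shared or NT-only regions at these same genes was not measured. The intervals cover counting error only and treat neighbouring regions as independent, and no test was made.

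**Figure D4:**
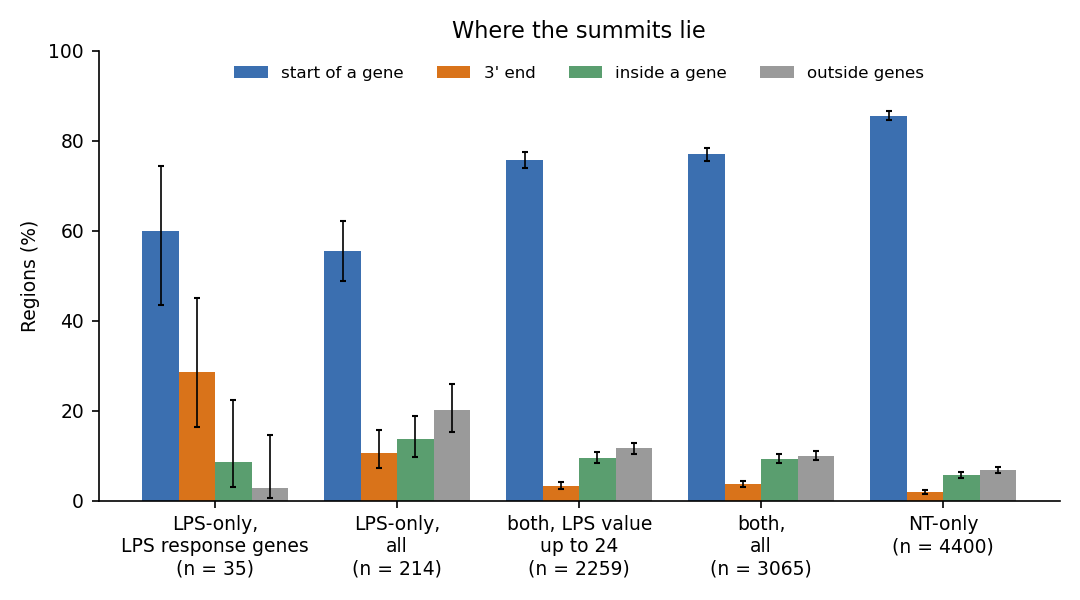
Bars give the percent of regions whose summit lay within 2.5 kb of a gene start, at the 3′ end, inside a gene or outside genes, for 5 sets of regions (n below each), with 95% Wilson intervals as error bars. The 3′ end bar is 28.6% in LPS-only regions at LPS response genes, 10.7% in all LPS-only regions and 1.84% in NT-only regions. No set shows shared or NT-only regions at LPS response genes alone.

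Taking both gene ends without strand gave a like picture, with the same limit from the rule. Of all 276 LPS-only regions, 168 (60.9%, 95% Wilson interval 55 to 66.4%) had their summit within 2.5 kb of an end of a protein-coding gene, against 74.2% of the shared regions with an LPS value up to 24 and 80.4% of NT-only regions. Inside genes and farther from an end were 18.5% (14.3 to 23.5%), against 14.8% and 12.3%. The remaining 57 (20.7%) lay between genes, against 11% and 7.28%.

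Part of the LPS-only regions bordered NT intervals, among them those at Nfkbia, Gadd45b, Socs3, Icam1 and Bcl6 described above. In 61 of 276 (22.1%, 95% Wilson interval 17.6 to 27.4%) the nearest NT interval was within 1 kb, with a median gap of 271 bp. Of NT-only regions, 259 of 5482 (4.72%, 4.19 to 5.32%) lay within 1 kb of an LPS interval. These shares are not like for like. The LPS list had 4651 intervals against 9643 in the NT list, so an NT-only region had fewer intervals to lie near. The neighbouring NT interval had a median summit value of 29 (range 13 to 213) and met an LPS interval of its own in 45 of the 61 cases (73.8%). The LPS values of these bordering regions were 8 to 19 (median 11), the same median as in the 183 regions over 10 kb from any NT interval, which had 8 to 24. The remaining 32 lay between these distances.

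Developmental genes were among those with an LPS-only region near NT intervals. An LPS-only region was held by 2 of 39 Hox genes (5.13%) and 2 of 48 developmental transcription factor genes (4.17%). These are small counts, beside 1.04% of all protein-coding genes. All 4 also had regions called in both, as did 34 of the 39 (87.2%) and 48 of the 48 (100%), and in none of the 4 was the LPS-only region over 10 kb from an NT interval. Hoxa13, which patterns the limb ends and hindgut, had NT intervals of 193 and 90 and LPS intervals of 84 and 34, with an LPS-only region of 10 beyond its 3′ end, 110 bp from an NT interval. Lhx1, a kidney and head organiser gene, had 119 in NT and 50 in LPS over the gene and an LPS-only region of 9 across its 3′ end, 157 bp from an NT interval. At Hoxb9 the region (11) lay between NT intervals of 91 and 80. At Tbx3, a limb and heart gene, it had 9 and lay 1775 bp from an NT interval of 43, so it is not a bordering region. Bordering regions also lay at Tbr1 (9, 64 bp from an NT interval of 81), Ptf1a (10, 193 bp from 39) and Pou4f1 (16, 317 bp from 28). These are genes of tissue-specific transcription factors, picked after their values were seen. Other bordering regions lay at genes of other kinds, such as Map3k5 (12, 209 bp from 18) and Coro1a (9, 413 bp from 22). How many of the bordering regions lay at developmental genes was not counted.

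The edge of the rule runs through such neighbours. The LPS-only regions closest to an NT interval were at Ntrk3 (3 bp, LPS value 11), Cdk6 (19 bp, 10), Eya2 (25 bp, 10) and Znfx1 (27 bp, 11), beside NT intervals of 22, 19, 31 and 27. The shared regions with the smallest overlap were at Septin5 (1 bp, 9 in LPS and 28 in NT), Twist1 (4 bp, 8 and 19), Faxc (13 bp, 15 and 15) and Bcor (39 bp, 9 and 17).

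LPS regions with a higher value lacked an NT partner less often. Of 205 regions with an LPS value of 7 to 9, 56 (27.3%) were LPS-only. The share was 15.1% of 927 regions at 10 to 12, 6.6% of 788 at 13 to 15, 3.43% of 554 at 16 to 18 and 1.27% of 709 at 19 to 24. None of 1120 regions from 25 to 100 was LPS-only. In the 700 shared regions with an LPS value of 19 to 24 the NT value was at least 18, with a median of 41, while the 9 LPS-only regions in that range, among them those at Ccl4, Cxcl10 and Rsad2, had no listed NT value. In the 149 shared regions at 7 to 9 the NT values began at 13 with a median of 23. All these values come from the calls that chose the regions and are a description.

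Promoters under LPS-only regions held fewer CG dinucleotides than those under other EZH2 regions, and no test was made. On the chromosomes of the promoter table, which has none of chromosome 18, 90 of 272 LPS-only regions (33.1%, 95% Wilson interval 27.8 to 38.9%) met a promoter window, which reaches from 250 bases before to 50 after a start. Of shared regions with an LPS value up to 24, 59.8% (58 to 61.6%) did. The LPS-only regions were also narrower, with a median width of 912.5 bp against 1817 bp, and the part of width in this share was not tested. NT-only regions, with a median width of 1083 bp, met one in 67% (65.8 to 68.3%). The 98 promoters met by LPS-only regions had a median of 16.5 CG dinucleotides in their 300 bases, against 23 in 3238 promoters under shared regions, 25 in 4818 under NT-only regions and 7 in all 32851 promoters of the table. The 15 of the 98 that belong to LPS response genes had a median of 6, and the other 83 had 19. All 203 promoters of LPS response genes in the table had a median of 10, so a low count was not particular to those under LPS-only regions. The rule leaves out regions that meet an NT interval, and its part in these counts was not tested. The 16 promoters under bordering regions had 27.

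**Figure D5:**
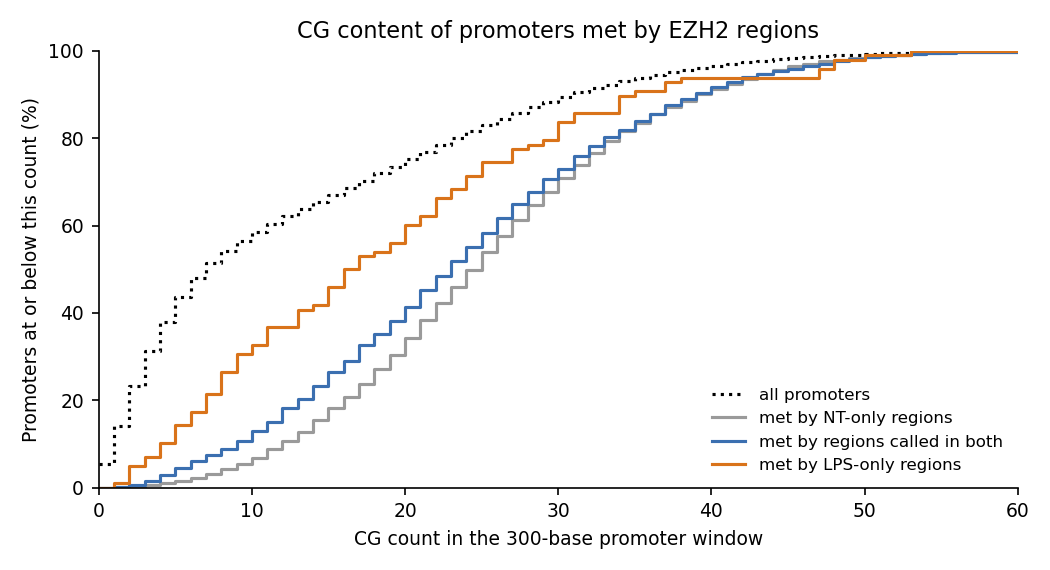
Lines give the percent of promoters (vertical axis) with a CG count in the 300-base window at or below the value on the horizontal axis. The line of the 98 promoters under LPS-only regions (orange, median 16.5) lies between all promoters of the table (dotted, 7) and promoters under regions called in both (blue, 23).

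The search for motifs in these windows covered both strands. The interferon response element core was in 10 of the 98 promoters (10.2%, 95% Wilson interval 5.64 to 17.8%), against 2.32% under shared regions, 2.16% under NT-only regions and 3.44% of all promoters. Of the 10, 6 were among the 15 promoters of LPS response genes, while 15.3% of the 203 promoters of all LPS response genes in the table held it. The other 83 promoters held it in 4.82% (1.89 to 11.7%), near the share of all promoters. The AP-1 site TGANTCA was in 11 of the 98 (11.2%, 6.38 to 19%), against 4.08%, 3.4% and 7.81%. The interval holds the 7.81% of all promoters. Of the 11, 5 were among the 15 promoters of LPS response genes (33.3%, 15.2 to 58.3%). That interval holds the 17.2% of the 203 promoters of all LPS response genes. The other 83 promoters held the AP-1 site in 7.23%. The NF-kB site was in 9.18% (4.91 to 16.5%), against 13.9%, 11.8% and 8.46%, and the TATA box TATAAA in 10.2%, against 6.98%, 5.06% and 13.6%. The NF-kB share under LPS-only regions was near that of all promoters, and its interval also held the shares under shared and NT-only regions. It joins unlike groups, since 4 of the 15 promoters of LPS response genes held the site (26.7%, 10.9 to 52%) and 6.02% of the other 83. Of the 203 promoters of all LPS response genes, 23.6% held it.

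In the promoters printed above, Cxcl10 had 3 matches to the NF-kB site, of which GGGAAATTCC ended 149 bases before the start and GGGGACTTCC and GGGACTTCCC overlapped at 94 and 93 bases. It also held the interferon response element core GAAAGTGAAA 203 bases before the start and the AP-1 site TGAGTCA at 67. Rsad2 held the interferon response element core, on the other strand, 110 bases before the start. Ifit1 held it at 94 and 75 bases, also on the other strand. Tnfaip3 had NF-kB matches at 115 and 2 bases and an AP-1 site at 129. Gbp5 had an NF-kB match at 67 and an interferon response element core at 155, on the other strand. In Tnf the 250 bases held a TATA box at 23 bases and no match to the other motifs. Of the 10 promoters wholly in a region, 3 had no match to any motif in these 250 bases, which were those of Ccl3, Bcl6 and Isg20. A match describes the letters and is not evidence that a factor bound there.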

How the data were processed

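The authors deposited 1 BED file with 5 tracks, holding for each EZH2 library its intervals and its summits, and 1 track of merged regions. BWA, SICER and mm10 stand in the submitters' processing notes, with no role or version. Starts were deposited counted from 0 and are printed 1-based. Filters, SICER settings and whether the input was used are not stated in the sources, and the read depth is unknown.

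Regions were joined to intervals at an overlap of at least 1 bp, and a region took the highest summit value in it. Genes and promoters came from RefSeq tables of GRCm38.p6. It has 21887 protein-coding genes, of which 17492 (79.9%) had a strand through the promoter table. From the 17 lists, 3 genes that the table does not class as protein-coding were dropped. Genes are named if they are on a list and have an LPS-only region within 2.5 kb, are nearest to the 15 highest or 10 widest regions (ties included), have 3 or more regions, or mark the edge of the rule or the regions farthest from genes, and some are omitted. Members, lists and rules were chosen with earlier results of these data known. Python 3.11.15, pandas 2.3.3 and scipy 1.17.1 were used. Region classes and distances were tested on simulated data. Alternatives changed the NT distance, the lowest LPS value, the NT list's length and the windows.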

Additional observations from a re-analysis of the deposited data

How the results depend on the processing

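Unknown depth and 1 library per condition limit these values, which show dependence on settings and not the spread between biological samples. No paired analysis was possible because neither condition has a second library. Under the alternatives, 33 of 49 values were the same (counts within 1.5 times, others within their 95% interval) and 16 moved. Stricter settings keep fewer regions by construction, and other causes were not tested. If no NT interval may lie within 10 kb, 183 regions were left. At or above the lowest NT value, 11, which is also the median of the LPS-only regions, 175 were left, with a median value of 12, a median width of 982 bp and 9 genes with 2 or more regions. When only the highest NT intervals were kept, as many as LPS has, 1315 regions were LPS-only, with a median value of 12 and width of 1381 bp, at 47 LPS response genes, and 71 genes had 2 or more. Summits within 1 kb and 5 kb of a gene end were 42% and 70.3%. The count of 29 LPS response genes was between 22 and 29 under the other settings.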

Other observations

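A stretch of 718.3 kb on chromosome 11, from 82948849 to 83667183, held 11 LPS-only regions, 2 regions called in both and 4 called in NT alone. It contains the Schlafen genes Slfn5 and Slfn2 and the chemokine genes Ccl5, Ccl3 and Ccl4, and was chosen after these values were seen. Chromosome 11 as a whole held 32 LPS-only regions (11.6%), against 8.79% of the regions called in both. Over the genome, 16 groups of LPS-only regions had gaps of at most 25 kb and held 40 regions, and 9 of the groups included a gene of the LPS response lists.

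Outside the lists, and named after their values were seen, genes with 2 LPS-only regions were the interferon-inducible GTPase gene Ifi47 (9 and 8), the heat shock gene Hspa1a (14 and 14), the proton-sensing receptor gene Gpr4 (11 and 9), Tmprss2 (10 and 9) and Art3, which overlaps Cxcl10. At Hspa1a the regions lay towards the 3′ end, with an NT interval of 18 over the start.

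Of the 276 regions, 53 had no protein-coding gene within 2.5 kb. The farthest lay on chromosome 12 (value 11), 568323 bp from the predicted gene Gm40892 and 1683730 bp from any NT interval, and the next 214071 bp from Pou3f1 (9) and 139011 bp from Parp8 (8).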
